A study of Mus musculus with 4 samples.

Results

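The core pluripotency transcription factors of mouse embryonic stem (ES) cells were followed across 4 microarrays of cells labelled as lacking the Polycomb proteins Ring1B or Ring1A and Ring1B. The set held 10 genes, Pou5f1, Nanog, Sox2, Klf2, Klf4, Klf5, Esrrb, Tbx3, Tfcp2l1 and Sall4, and every probe set annotated to exactly 1 of these symbols was taken, which gave 22 of the 34958 probe sets with 1 gene symbol, or 10 of 18193 named genes. The first pair was a constitutive knockout (KO) of Ring1B and wild-type cells given as its control. The second was a conditional KO of both Ring1A and Ring1B taken at day 4 (the double KO, for which the series text names OHT as the agent) and wild-type cells given as the control of that line. Each group held 1 array, so no difference has a replicate check, and precision is limited by the 4 arrays. The labels give no clone, passage or feeder layer, and no allele or agent of either control beyond wild-type.

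Pou5f1 (encoding Oct4), Sox2 and Nanog form the centre of the network that keeps ES cells undifferentiated: Oct4 and Sox2 bind DNA together, and all of these factors bind the regulatory regions of each other's genes. Klf2, Klf4, Klf5, Esrrb, Tbx3 and Tfcp2l1 are factors of the naive state of mouse ES cells. They are partly redundant, and the cytokine LIF feeds into them, through Stat3 to Klf4 and Tfcp2l1. Polycomb repressive complex 1, which holds Ring1A (gene symbol Ring1) or Ring1B (gene symbol Rnf2), ubiquitinates histone H2A and is known for silencing developmental genes in these cells.

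Promoter windows of 7 of the 10 genes were in the RefSeq table used here (GRCm38.p6). Pou5f1, Nanog and Esrrb had 2 windows each, and the one with the most upstream start was taken. Positions and matches below hold for that start only. The 250 bases before the start were searched on both strands for the octamer core bound by Oct4 (ATGCAAA), the Sox core (ACAANG), a Klf motif (GGGNGNGGC) and the half-site of estrogen-related receptors such as Esrrb (AAGGTCA). The windows of Nanog and Sox2 are shown because their signals had one of the most alike patterns among the factors, and those of Klf2 and Klf4 because these paralogs lay on opposite sides of their controls. Capitals mark the matched motifs. The Nanog window is chr6:122707239-122707488 (plus strand), the Sox2 window chr3:34649745-34649994 (plus), the Klf2 window chr8:72318812-72319061 (plus) and the Klf4 window chr4:55532476-55532725 (minus).
Nanog: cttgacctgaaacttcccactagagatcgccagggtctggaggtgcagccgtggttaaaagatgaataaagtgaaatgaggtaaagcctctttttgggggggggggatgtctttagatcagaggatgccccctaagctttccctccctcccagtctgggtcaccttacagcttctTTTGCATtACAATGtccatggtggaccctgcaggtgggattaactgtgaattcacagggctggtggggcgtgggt
Sox2: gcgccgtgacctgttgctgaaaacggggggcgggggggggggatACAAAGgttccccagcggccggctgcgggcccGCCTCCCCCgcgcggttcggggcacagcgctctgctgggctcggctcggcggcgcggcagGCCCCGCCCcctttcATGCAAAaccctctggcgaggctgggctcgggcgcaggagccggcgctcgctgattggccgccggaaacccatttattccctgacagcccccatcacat
Klf2: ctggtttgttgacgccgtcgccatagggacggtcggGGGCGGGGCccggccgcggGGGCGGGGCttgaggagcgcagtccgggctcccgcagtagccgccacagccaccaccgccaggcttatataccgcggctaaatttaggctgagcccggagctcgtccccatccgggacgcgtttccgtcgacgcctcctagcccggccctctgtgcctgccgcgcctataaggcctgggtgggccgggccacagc
Klf4: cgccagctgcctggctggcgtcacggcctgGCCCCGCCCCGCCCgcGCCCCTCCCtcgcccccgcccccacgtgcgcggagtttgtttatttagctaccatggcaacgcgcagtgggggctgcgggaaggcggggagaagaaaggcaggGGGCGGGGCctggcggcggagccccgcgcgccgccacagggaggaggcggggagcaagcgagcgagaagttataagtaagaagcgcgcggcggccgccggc

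The octamer core was found in the windows of Nanog and Sox2 alone among the 7, and it stands in 4.12% of all 32851 windows of this length in the table. In the Nanog window it began at position −75 from the start and was followed after 1 base by a Sox core at position −67, the arrangement known as the Oct4 and Sox2 site of the Nanog promoter. In the Sox2 window the octamer core began at position −99 and a Sox core at position −206. The Sox core was found in these 2 windows too, and stands in 36.3% of all windows. The Klf motif was found in 6 of the 7 windows (all but that of Nanog), against 23.3% of all windows. The Klf4 window held it 4 times, with 1 pair of overlapping matches, the Klf2 and Sox2 windows 2 times each, and those of Pou5f1, Esrrb and Tfcp2l1 1 time each. The estrogen-related receptor half-site, which stands in 4.08% of all windows, was found in none of the 7. The matches are of letters only, and these windows are rich in G and C, from 52% for Nanog to 74% for Klf4.

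Several facts about the arrays bear on every value below. The 45101 deposited signals per array had a mean, after leaving out 2% at each end, of 500.0 on both arrays of the Ring1B pair, of 147 on the array labelled as double KO and of 160 on its control. All arrays were therefore brought to a common trimmed mean of 277, and signals were floored at 36.6 before log2 was taken. All 8 markers of undifferentiated ES cells lay above the floor on all 4 arrays. They are no separate check, since they include Pou5f1, Nanog and Sox2, and the others are among the network genes described below. The targeted genes gave no check of the labels: the brightest Rnf2 probe set was 1.08-fold higher on the array labelled as Ring1B KO and 1.10-fold lower on the array labelled as double KO than on their controls, and the Ring1 probe set was 1.12-fold and 1.24-fold higher. In the double KO pair Ring1 was near the floor, at 55.6, against 44.7 in the control. Other Rnf2 sets went both ways: in the same order 1448042_s_at was 1.16-fold and 1.32-fold lower, 1448043_x_at 1.91-fold and 1.38-fold higher, and 1451519_at 1.12-fold higher and 1.13-fold lower. It is not known here if the deletions cover these probe sets, so arrays are named by their labels. Most markers of endoderm, fibroblasts and trophoblast were lower on the array labelled as double KO than on its control, and no value here settles which array of that pair is the KO. An exchange of its labels would turn the sign of every double KO difference below. A log2 difference below is a KO array minus its own control, and a gene is called apart at 2-fold or more.

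In the array labelled as Ring1B KO 8 of the 10 factors were under 2-fold apart from their control, with Klf2 lower and Tbx3 higher by more than 2-fold. Of the 10 factors, 6 had lower and 4 had higher signals, and the median log2 difference was −0.21, against −0.02 over all 12343 genes above the floor on either array. In the array labelled as double KO, 7 factors had higher and 3 had lower signals than in its control. The median log2 difference was 0.48, against −0.05 over 12353 genes, and here Klf2 was the factor more than 2-fold higher and Tbx3 the one more than 2-fold lower. Over all genes, 6.15% were called in the Ring1B comparison (3.54% higher and 2.61% lower) and 13.0% in the double KO comparison (3.02% higher and 9.99% lower, so that 23.2% of those called were higher, or 38.4% when arrays were scaled to a common median). Bright genes differed less. Among the 2326 genes at least as bright as the dimmest of the factors on average, 1.55% were called in the Ring1B comparison and 3.27% in the double KO comparison. Of the factors, 2 of 10 were called in each comparison, and they were chosen with earlier results of these arrays known. In bulk RNA of this kind, fewer cells of a type and less RNA per cell cannot be told apart.

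**Figure D1:**
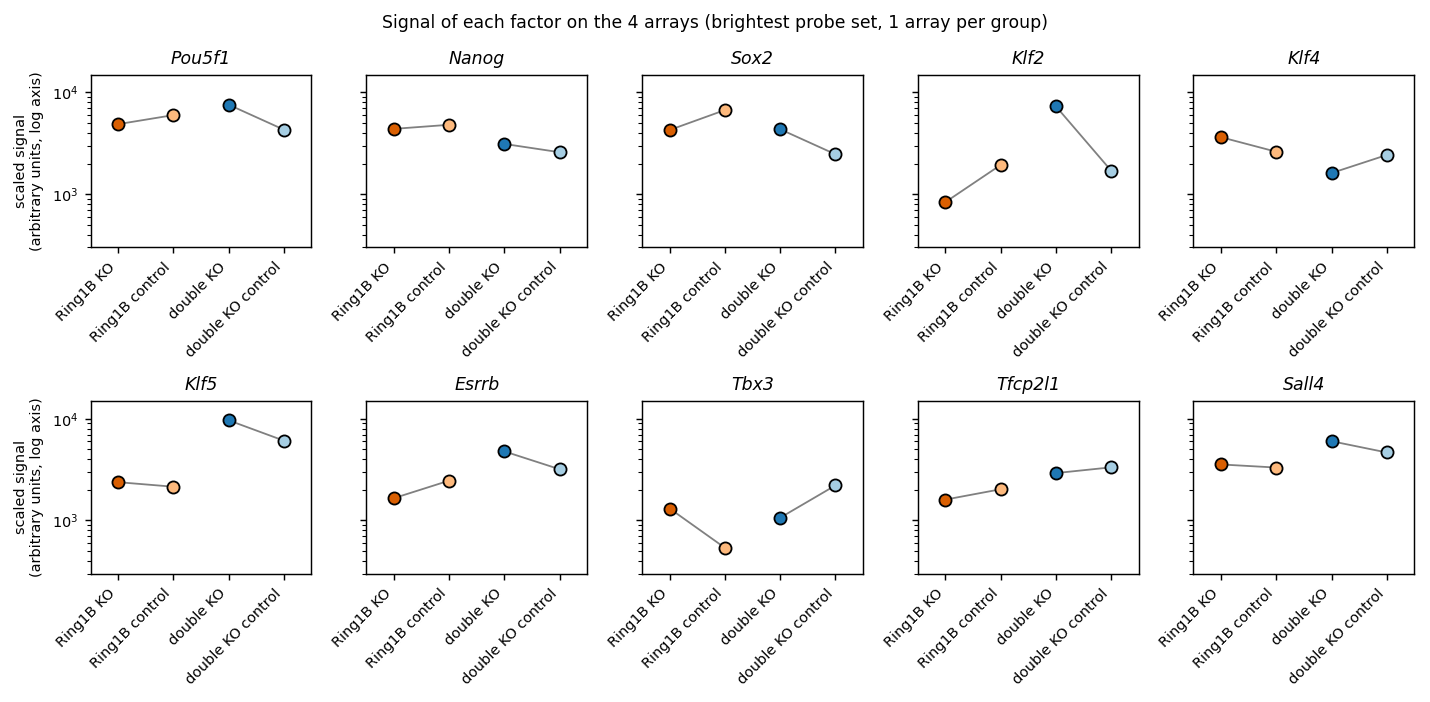
Scaled signal (arbitrary units, log axis) of the brightest probe set of each factor on the 4 arrays, 1 point per array, with lines joining each KO array to its own control. Klf2 shows the widest spread, from 835 on the array labelled as Ring1B KO to 7318 on the array labelled as double KO, and Tbx3 and Klf4 slope the other way from Klf2 in both pairs.

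Among the central factors, Pou5f1 (probe set 1417945_at) had a signal of 4879.6 on the array labelled as Ring1B KO, against 5988 on its control, and of 7581 on the array labelled as double KO, against 4304 on its control. The signal was thus highest on the array labelled as double KO and lowest on its control, and the arrays of the Ring1B pair lay between them. It was 1.23-fold lower in the first pair and 1.76-fold higher in the second. Sox2 (probe set 1416967_at), the HMG-box partner of Oct4, had 4275 on the array labelled as Ring1B KO, against 6709.5 on its control, which is 1.57-fold lower. On the array labelled as double KO it had 4351, against 2469.5 on its control, which is 1.76-fold higher. The KO arrays thus had nearly the same Sox2 signal, and their controls were 2.72-fold apart, the Ring1B control being the higher. Nanog (probe set 1429388_at), the homeodomain protein that stabilises self-renewal, had 4386 in the labelled Ring1B KO, against 4810.2 in its control, and 3118 in the labelled double KO, against 2585 in its control. Its differences of −0.13 and 0.27 were each smaller than that between the control arrays (−0.90, the array labelled control of the double KO minus the Ring1B control).

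Klf2 (probe set 1448890_at), a zinc finger factor whose gene is activated by Oct4 in mouse ES cells, differed most. Its signal was 835 on the array labelled as Ring1B KO, against 1937 on its control, and 7318 on the array labelled as double KO, against 1706 on its control. The controls were within 1.14-fold of each other, and the KO arrays lay on opposite sides of both. The difference was 2.32-fold downward in the Ring1B comparison and 4.29-fold upward in the double KO comparison, where 99.6% of all genes had a lower log2 difference. In the Ring1B comparison 1.42% of genes had a lower one. Klf2 is measured by 1 probe set, so no second set bears on it.

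Klf4 (probe set 1417394_at), the LIF-responsive paralog, lay on the other side of its controls from Klf2 in both comparisons. Its signal was 3631 on the array labelled as Ring1B KO, against 2611 on its control, and 1613 on the array labelled as double KO, against 2428 on its control. It was therefore 1.39-fold higher in the first comparison and 1.51-fold lower in the second, under 2-fold in each. The other Klf4 probe set (1417395_at) read 983 in the labelled Ring1B KO, against 703 in its control, and 1304 in the labelled double KO, against 1899 in its control, with log2 differences of 0.48 and −0.54 beside 0.48 and −0.59 at the brightest set.

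Klf5 (brightest probe set 1451021_a_at), the third Krüppel-like factor of this circuit, was set apart by pair more than by KO. The brightest probe set read 2379.9 on the array labelled as Ring1B KO, against 2147 on its control, and 9651 on the array labelled as double KO, against 6090.0 on its control. Both arrays of the double KO pair thus lay above both arrays of the Ring1B pair, and within pairs Klf5 was 1.11-fold and 1.58-fold higher. The next probe set (1451739_at) did not show the gap between pairs, with 359 in the labelled Ring1B KO, against 288 in its control, and 322 in the labelled double KO, against 294 in its control. The last Klf5 set (1430255_at) was above the floor on the Ring1B control alone, at 42.8. Taken without probe sets that may match several transcripts, the Klf5 difference in the double KO comparison was 0.13 in place of 0.66.

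Esrrb (brightest probe set 1436926_at), the orphan nuclear receptor of the naive state, followed Pou5f1 and Sox2 in direction. Its brightest probe set read 1657 on the array labelled as Ring1B KO, against 2465 on its control, and 4775 on the array labelled as double KO, against 3189.7 on its control. The log2 difference was −0.57 in the Ring1B comparison and 0.58 in the double KO comparison, both under 2-fold. The set 1422986_at read 634 in the labelled Ring1B KO, against 1043 in its control, and 891 in the labelled double KO, against 461 in its control. The set 1441921_x_at read 376 in the labelled Ring1B KO, against 485 in its control, and 739 in the labelled double KO, against 319.5 in its control. All 3 Esrrb probe sets were thus lower in the array labelled as Ring1B KO and higher in the array labelled as double KO, by log2 differences of −0.72 to −0.37 and of 0.58 to 1.21.

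Tbx3 (brightest probe set 1448029_at), a T-box factor that maintains self-renewal and is also known to promote endoderm, differed the other way from most of the factors. Its brightest probe set read 1312 on the array labelled as Ring1B KO, against 539 on its control, and 1064 on the array labelled as double KO, against 2208 on its control. It was 2.43-fold higher in the first comparison and 2.08-fold lower in the second. The KO arrays had closer Tbx3 signals to each other than the controls had, which were 4.10-fold apart, with the array labelled control of the double KO the higher. Of the 5 Tbx3 probe sets, 1 was at the floor on all arrays, and the other 4 were all higher in the array labelled as Ring1B KO and all lower in the array labelled as double KO. The set 1445757_at gave the widest differences, with 148 in the labelled Ring1B KO, against 52.9 in its control, and 131 in the labelled double KO, against 409.8 in its control. The set 1439567_at gave the narrowest, with 118 in the labelled Ring1B KO, against 95.4 in its control, and 51.5 in the labelled double KO, against 63.0 in its control. With the mean over its 5 probe sets Tbx3 was under 2-fold apart, at 0.84 and −0.84. That mean takes in the set at the floor (1444594_at) as a difference of 0 in both comparisons. It is thereby drawn toward 0 by a set that did not read the gene. Scaled to a common median Tbx3 was at 1.33 and −0.86.

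Tfcp2l1 (probe set 1418091_at), a CP2-family factor downstream of Stat3, was the only one of the 10 lower in both KO arrays than in their controls, although its difference in the double KO comparison, −0.19, was 0.00602 when arrays were scaled to a common median. It had 1604 in the labelled Ring1B KO, against 2027 in its control, and 2923 in the labelled double KO, against 3329 in its control. Its remaining 2 probe sets were at the floor on all arrays. Sall4 (probe set 1424152_at), a zinc finger factor that binds the Pou5f1 gene, had 3554 on the array labelled as Ring1B KO, against 3313 on its control, and 6015 on the array labelled as double KO, against 4660.0 on its control. It was 1.07-fold and 1.29-fold higher. Its other probe set (1424153_s_at) gave log2 differences of −0.14 and 0.79, so the sign of the Ring1B difference depended on the set.

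**Figure D2:**
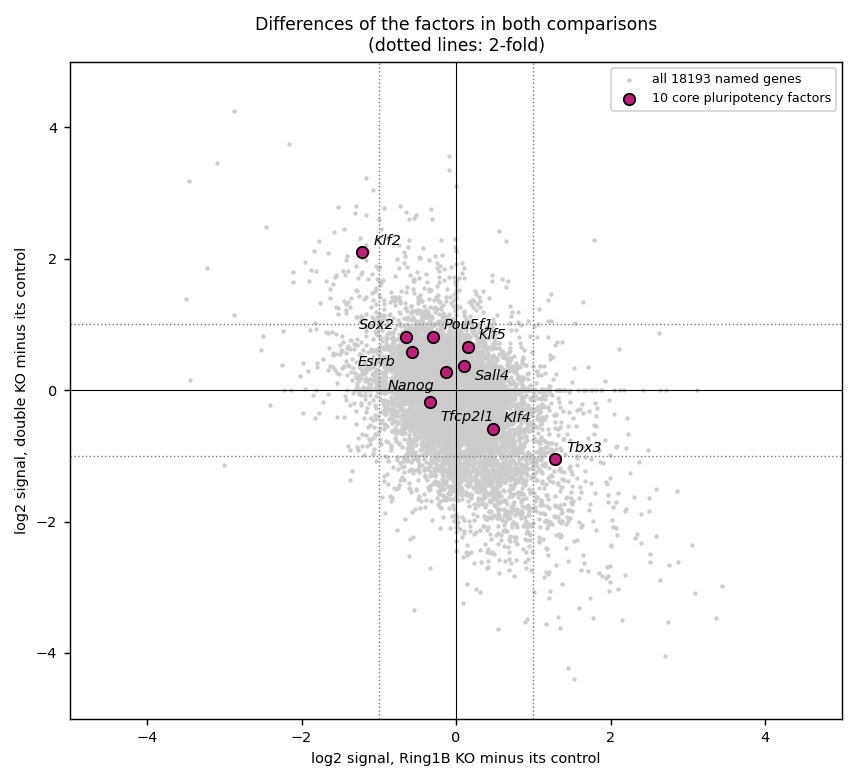
Log2 difference in the Ring1B comparison (horizontal) against that in the double KO comparison (vertical) for the 10 factors over all 18193 named genes, including genes at the floor, with dotted lines at 2-fold. Klf2 at −1.21 and 2.10 and Tbx3 at 1.28 and −1.05 lie past 2-fold on both axes, in opposite corners.

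Set side by side, the comparisons went opposite ways for 7 of the 10 factors. Pou5f1, Nanog, Sox2, Klf2 and Esrrb were lower in the array labelled as Ring1B KO and higher in the array labelled as double KO, and Klf4 and Tbx3 were higher in the first and lower in the second. Klf5 and Sall4 were higher in both. The comparisons share no array. Opposite directions were nearly as common among all genes, at 62.0% of 11615 genes above the floor in both comparisons and 62.5% of the 2326 bright genes, so the 70.0% of the factors is near the background. The difference between the comparisons was widest for Klf2 (3.31, the double KO log2 difference minus the Ring1B one) and for Tbx3 (−2.34), and narrowest for Tfcp2l1 (0.15) and Sall4 (0.27).

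The size of these differences can be set against that between the 2 control arrays, both labelled wild-type. At the brightest probe sets, the difference from the own control was larger than that between controls for 3 of 10 factors in the Ring1B comparison (Klf2, Klf4 and Esrrb). In the double KO comparison it was larger for 4 of 10 (these and Pou5f1). At the other Klf4 set the difference between controls was 1.43, against 0.48 and −0.54 within pairs. For Esrrb it was −1.18 at 1422986_at, against −0.72 and 0.95, and −0.60 at 1441921_x_at, against −0.37 and 1.21. Between the controls, 20.3% of 12645 genes were called (12.2% higher and 8.15% lower on the array labelled control of the double KO) and 11.6% of the bright genes. Among the factors Klf5 (2.84-fold) and Tbx3 were higher and Sox2 was lower on the array labelled control of the double KO. Against the control of the other pair, 4 of 10 factors kept their direction in the array labelled as Ring1B KO and 6 of 10 in the array labelled as double KO. Shares over all genes were not taken for these counts or those against the difference between controls, so neither sets the factors apart from other genes. Klf2 was the single factor at least 2-fold apart from its own control in both comparisons that kept its direction against the other one, at −1.03 and 1.92. Esrrb kept it at its brightest probe set, at −0.94 and 0.95, but at 1422986_at the values were 0.46 and −0.23 and at 1441921_x_at they were 0.23 and 0.61. Klf4 likewise kept it at its brightest set, at 0.58 and −0.69, and at 1417395_at had −0.95 and 0.89. Tbx3 turned in both, to −0.75 and 0.98, as did Nanog (0.76 and −0.63) and Sox2 (0.79 and −0.62).

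Probe sets of Klf4, Esrrb and Tbx3 agreed in direction within pairs, and those of Klf4, Klf5, Esrrb and Tbx3 disagreed between the control arrays. For Klf4, the difference between the control arrays was −0.10 at one set and 1.43 at the other, while the differences within pairs agreed to the second decimal in the Ring1B comparison. For Esrrb the difference between the control arrays was 0.37 at the brightest set and −1.18 and −0.60 at the others. A level of one of these factors therefore cannot be set across the pairs from these signals, and the values within pairs are the ones that several probe sets bear out for Klf4, Esrrb and Tbx3. The probe sets share the RNA of the same array, so their agreement says nothing about other cultures.

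**Figure D3:**
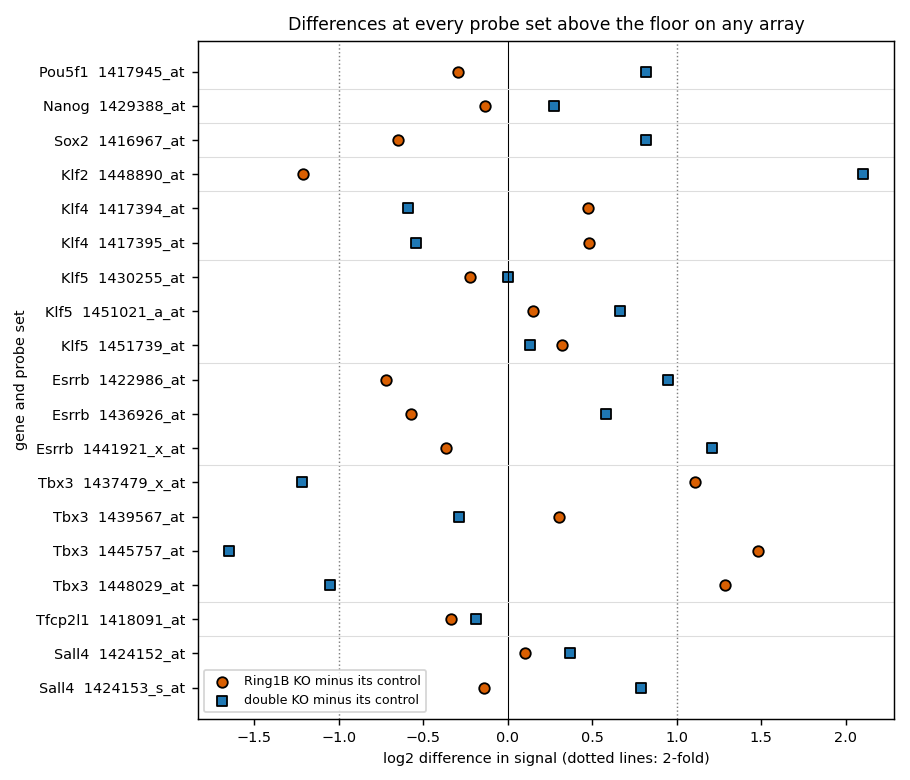
Log2 difference in signal (horizontal, dotted lines at 2-fold) at each probe set of the 10 factors above the floor on at least 1 array; circles are the Ring1B comparison and squares the double KO comparison. The 2 sets of Klf4, the 3 of Esrrb and the 4 of Tbx3 keep circles on one side of 0 and squares on the other.

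Some genes outside the set followed the factors closely over the 4 arrays, each gene taken at its brightest probe set. Likeness was measured as the Euclidean distance between log2 signals centred on each gene's mean over the 4 arrays, among 10292 genes above the floor on every array. The genes named are the nearest of that many over only 4 arrays. Levels across the pairs enter the distances, so these carry the limit given above for such levels. At the other Klf4 set the difference between controls was 1.43, against −0.10 at the set used, so the genes near Klf4 hold for 1 set. Some of the genes were dim, such as Elobl (47.0 to 79.2) and Phf1 (54.9 to 121). Nearest to Pou5f1 were Tmem131 (distance 0.0120), Tmem81 and Elobl, and nearest to Nanog were Nucks1 (0.0384), Slc39a10 and Cdkn2aip. Nearest to Klf4 were Phf1 (0.0348), Gfpt1 and Cdkn3. Nearest to Tbx3 were Bcor (0.14), which encodes a corepressor found in a variant of Polycomb complex 1, Pdlim4 and Icosl. Bcor read 402 on the array labelled as Ring1B KO, against 168 on its control, and 322 on the array labelled as double KO, against 756 on its control. Among the factors themselves, the closest profiles were those of Tfcp2l1 and Sall4 (0.53) and of Nanog and Sox2 (0.53), and the most distant were those of the paralogs Klf2 and Klf4 (3.08).

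Most other genes listed for the ES cell network lay on the same side of their controls as most of the factors. Of 29 listed genes, 24 had lower signals in the array labelled as Ring1B KO, with a median log2 difference of −0.23, and 24 had higher signals in the array labelled as double KO, with a median of 0.41. At least 2-fold apart were 1 higher and 2 lower genes in the first comparison, where 3.54% of all genes were called higher and 2.61% lower, and 8 higher and 0 lower in the second, where the shares of all genes were 3.02% and 9.99%. The 8 include Manba (−0.39 and 1.77), a mannosidase gene rather than a network factor. The list also held Tcf3 (−0.07 and 0.02), which is a different gene from Tcf7l1 of the formative list below. The medians over all genes were −0.02 in the Ring1B comparison and −0.05 in the double KO comparison, and these shares and medians are also those beside which the lists below stand. Mycn, a growth-promoting bHLH factor, stood past 2-fold in both, with 1261 in the labelled Ring1B KO, against 2637 in its control, and 3596 in the labelled double KO, against 1711 in its control. The nuclear receptor gene Nr0b1, a repressor partner of Oct4, was 4.88-fold higher in the array labelled as double KO and 1.53-fold lower in the array labelled as Ring1B KO. Lefty1, a Nodal antagonist gene, had 1386 in the labelled Ring1B KO, against 2303 in its control. In the labelled double KO it had 3746, against 535 in its control, which is 7.01-fold higher. Dppa3 (Stella), a germline and naive-state gene, was 5.29-fold lower in the array labelled as Ring1B KO (358, against 1894 in its control) and differed by −0.23 in the array labelled as double KO. Lefty2, the relative of Lefty1, lay on the same side as Tbx3, 4.63-fold higher in the array labelled as Ring1B KO and 1.33-fold lower in the array labelled as double KO. The controls also differed for some of these genes. On the array labelled control of the double KO, Nr0b1 was 3.82-fold, Lefty1 4.31-fold and Mycn 1.54-fold lower than on the Ring1B control. Lefty2 was 7.11-fold higher there (1864, against 262), above its 1212 in the labelled Ring1B KO, and Dppa3 was 1.14-fold higher.

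Genes of the LIF pathway had modest differences. Of 11 genes, 0 were 2-fold apart in the Ring1B comparison, where 9 were lower and the median was −0.21. Pim1, a kinase gene induced by Stat3, was closest to the threshold, with 657 on the array labelled as Ring1B KO, against 1308 on its control. In the double KO comparison 6 were higher and 5 lower, with a median of 0.22, which was −0.08 without probe sets that may match several transcripts. The receptor gene Lifr was 2.32-fold higher (297 in the labelled double KO, against 128 in its control) and the kinase gene Jak2 2.51-fold lower (85.2 in the labelled double KO, against 214 in its control). Lifr read 702 in the labelled Ring1B KO, against 977 in its control, so its controls were 7.63-fold apart, more than either array was from its own control. Stat3 itself had log2 differences of −0.05 and 0.46.

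Paralogs of the factors took no shared direction in the Ring1B comparison, with 16 of 31 higher and a median of 0.04 that changed sign with the setting (−0.17 with the high floor). They were mostly lower in the double KO comparison, with 20 of 29 lower and a median of −0.43. That median was −0.30 with the high floor, −0.17 with the mean over probe sets and −0.10 against the control of the other pair. Several of the 29 were at the floor on 1 array of the pair. None of the other Klf genes was 2-fold apart, of 12 above the floor in the Ring1B comparison and 13 in the double KO comparison, with differences between −0.66 for Klf10 and 0.78 for Klf16 in the first and between −0.88 for Klf6 and 0.92 for Klf10 in the second. Pou3f3, a POU-domain relative of Pou5f1, was the paralog furthest higher in the Ring1B comparison, 2.09-fold, with 82.5 in the labelled Ring1B KO, against 39.5 in its control. Sall1, a paralog of Sall4, had the directions of Klf2 within pairs, but its KO arrays were close and its controls 8.32-fold apart, the Ring1B control being the higher. Its signal was 621 on the array labelled as Ring1B KO, against 1393 on its control, and 659 on the array labelled as double KO, against 168 on its control, which is 2.24-fold lower and 3.93-fold higher. Grhl2, a relative of Tfcp2l1 active in epithelia, was 1.82-fold lower and 2.22-fold higher. Esrra, a paralog of Esrrb, was 3.06-fold lower in the array labelled as double KO (64.3, against 197 in its control) and differed by −0.48 in the array labelled as Ring1B KO. Tbx4 was at least 4.51-fold lower in the array labelled as double KO, where it was at the floor, against 165 on its control.

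The formative and primed states are those through which ES cells pass as naive factors are lost, and 17 of their genes were on the arrays. In the array labelled as Ring1B KO 10 of 14 were higher, with a median of 0.36. The homeobox gene Otx2 was 3.28-fold higher (254, against 77.6 in its control), Lef1 was at least 2.59-fold higher, and Dnmt3l differed by 0.97. Sox3, a paralog of Sox2, differed by 0.94 in the Ring1B comparison and by −0.94 in the double KO comparison. In the array labelled as double KO 9 of 15 were higher, with a median of 0.18, which was −0.03 with the values as deposited and −0.05 against the control of the other pair. The DNA methyltransferase gene Dnmt3a was 3.63-fold higher (2029.8, against 559 in its control), Fgf5 at least 3.05-fold higher, Zic5 2.77-fold higher and the Wnt modulator gene Sfrp2 2.76-fold lower. Otx2 had 1778 on the array labelled as double KO, against 1391 on its control.

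**Figure D4:**
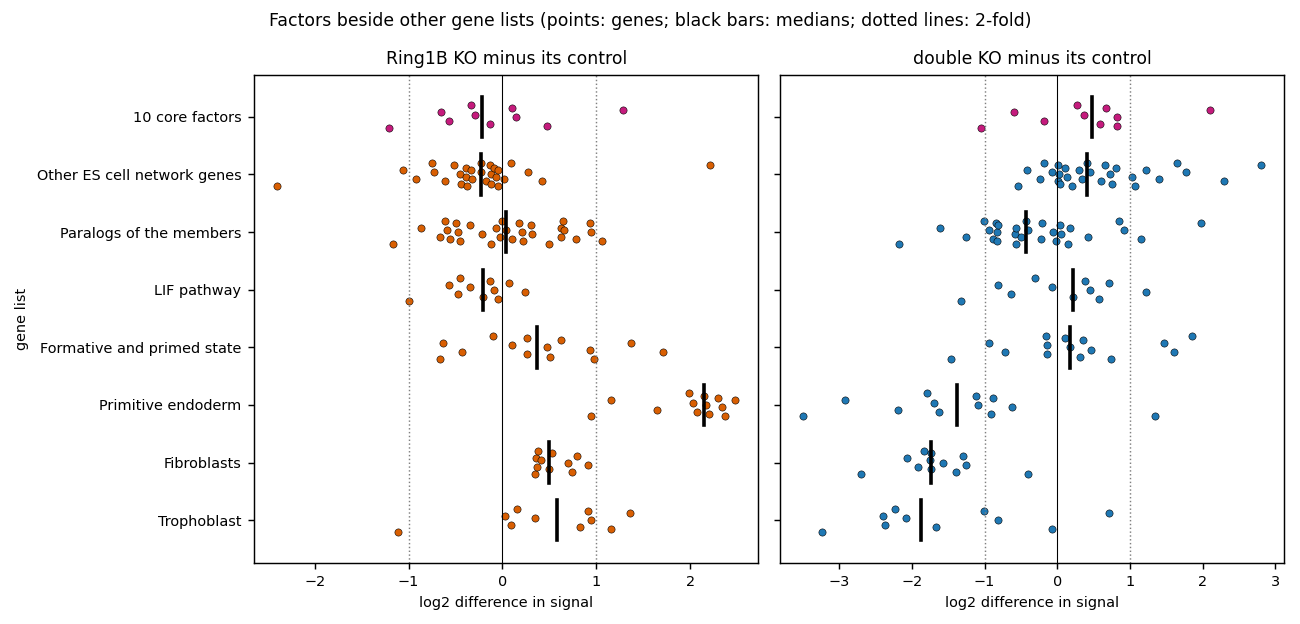
Log2 difference in signal (horizontal, dotted lines at 2-fold) of the 10 factors and of 7 other lists, 1 point per gene above the floor on either array, with black bars at list medians. The factors and the other ES cell network genes have medians of −0.21 and −0.23 in the Ring1B comparison and of 0.48 and 0.41 in the double KO comparison, and the endoderm, fibroblast and trophoblast markers have medians on the other side of 0 in both.

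Most markers of other cell types lay on the other side of their controls from most of the factors, and on the same side as Tbx3 and Klf4. Summed over the 13 primitive endoderm markers, with genes at the floor entered at it, the signal was 28343 on the array labelled as Ring1B KO, against 9332 on its control, and 6137 on the array labelled as double KO, against 13460.5 on its control. Of these markers 12 of 13 were at least 2-fold higher in the first comparison and 8 of 12 at least 2-fold lower in the second. The laminin gene Lama1 was 2.53-fold higher in the second, with 513 in the labelled double KO, against 203 in its control, and Cubn was at the floor on both arrays of the double KO pair. Sparc alone held much of the endoderm sums of that pair, with 3531 in the labelled double KO, against 7640 in its control. The 12 fibroblast markers summed to 10608 in the labelled Ring1B KO, against 6828 in its control, and to 1351 in the labelled double KO, against 4439.9 in its control. None of 11 was 2-fold apart in the first comparison and 11 of 12 were at least 2-fold lower in the second, and Lum was at the floor on 3 of the 4 arrays. The 12 trophoblast markers summed to 3687 in the labelled Ring1B KO, against 3024 in its control, and to 2846 in the labelled double KO, against 10357 in its control. The keratin genes Krt18 and Krt8 held much of these sums, with 5523 and 2293 on the control of the double KO. In the Ring1B comparison 9 of 10 markers were higher, among them Krt18 (1014, against 539) and Krt8 (1121, against 437), and Tfap2c was lower (692, against 1496). Of 10 above the floor, 2 were at least 2-fold higher and 1 lower in the first comparison and 7 lower in the second, with Elf5 and Plac1 at the floor on all arrays. Tbx3 and Sall4 are also known in endoderm, Klf4 in fibroblasts and Klf5 in trophoblast. The part of such cells in the differences of the factors was not tested.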

How the data were processed

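Total RNA of ES cells was hybridised to 4 Affymetrix arrays, 1 per group. The deposited value is a signal intensity per probe set on a linear scale, made with MAS5 per the submitters' processing notes, with version and settings not given in the sources used here. Arrays were grouped by their labels and compared with the labelled control of the same pair. Each array was multiplied to reach a common 2%-trimmed mean (277), which assumes that summed signal is alike. Signals were floored at 36.6, the 40th percentile of scaled signals of probe sets with 1 symbol, and log2-transformed (Python 3.11.15, numpy 2.4.6, pandas 2.3.3). The floor makes differences of dim genes smaller, and a gene at the floor on 1 array has a lower bound.

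Gene symbols came from GEO's annotation of the array design. The Entrez identifiers of all 22 probe sets of the factors had the same symbol in RefSeq. A gene took the probe set with the highest mean log2 signal before flooring. All factors were named with every probe set, and from each other list up to 3 genes per direction and comparison were taken from those with the largest differences. The rule for the 3 nearest genes was set for Pou5f1, Nanog, Klf4 and Tbx3. Stat3, Klf6, Klf16, Lama1, Krt8, Krt18, Tfap2c and the markers at the floor were named beside these rules, after their values were seen. The factors and lists were chosen with earlier results of these data known. Some listed genes were not analysed here. Promoter windows of Klf5, Tbx3 and Sall4 were not used here.

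With 1 array per group no test was possible. A difference of at least 2-fold was counted as a call, and shares and medians over all genes are given for the factors and once for the other lists. Alternatives were the values as deposited, scaling to a common median, quantile normalization, floors at the 20th and 60th percentile, the mean over probe sets, leaving out probe sets with possible matches to several transcripts, and the control of the other pair. The steps were tested on simulated data.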

Additional observations from a re-analysis of the deposited data

Results flagged for a closer look

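Of the 10 factors, 7 lay on opposite sides of their controls in the 2 comparisons, which share no array. With 1 array per group the difference between comparisons was not tested. It is given here as the double KO log2 difference minus the Ring1B log2 difference. It was 3.31 for Klf2, 1.47 for Sox2, 1.16 for Esrrb, 1.11 for Pou5f1 and 0.40 for Nanog, whose signals were higher in the array labelled as double KO and lower in the array labelled as Ring1B KO than in their controls. It was −2.34 for Tbx3 and −1.07 for Klf4, which differed the other way in both. Of all genes above the floor in both comparisons, 62.0% had opposite directions too.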

How the results depend on the processing

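Of 140 log2 differences of single factors recomputed with the own control under 7 alternatives, 138 kept their direction. The exceptions were Tfcp2l1 in the double KO comparison scaled to a common median (0.00602) and Sall4 in the Ring1B comparison with the mean over probe sets (−0.02). Many of the 140 values could not move, so the count of 138 says little about robustness. All factors lay above both other floors, and the deposited scale was alike on both arrays of the Ring1B pair. Leaving out probe sets changed Klf5 alone, and the mean over probe sets could not change the 4 factors with 1 probe set. Klf2, with 1 probe set and signals above every floor, could move by scaling alone. It stayed past 2-fold under all 7, from −1.21 to −1.16 in the Ring1B comparison and from 1.97 to 2.29 in the double KO comparison. Scaling to a common median moved the median of all genes in the double KO comparison by 0.18. It raised the number of factors at least 2-fold higher there to 3, with Pou5f1 and Sox2 at 1.01 each, and took the number at least 2-fold lower to 0. With the mean over probe sets 0 factors were at least 2-fold higher in the Ring1B comparison and 0 at least 2-fold lower in the double KO comparison, since Tbx3 fell short. The Tbx3 mean takes in a probe set at the floor on all arrays, which draws it toward 0. Against the control of the other pair, 0 factors were at least 2-fold higher and 3 lower in the array labelled as Ring1B KO, and 2 higher and 0 lower in the array labelled as double KO, with Tbx3 at −0.75 and 0.98. Between the controls (that of the double KO minus that of the Ring1B KO) Klf5 was 2.84-fold higher, but was at −0.14 as deposited, where the pairs have different means. Counts over all genes in the Ring1B comparison (437 higher, 322 lower) were 880 and 762 with the low floor, 168 and 152 with the high floor, and 1001 and 1395 against the other control. In the double KO comparison (373 higher, 1234 lower) they were 928 and 2172, 218 and 530, and 960 and 1212 in the same order. There the higher genes numbered 232 as deposited and 609 with the common median, and the share of higher genes among those called was 38.4% with the common median, against 23.2% as reported. The cause of these changes was not tested. No paired analysis was possible because each group holds 1 array. Precision is limited by that number, and signal over background was not given.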
